A study of Mus musculus with 4 samples.

Results

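The gene group described here holds 8 transcription factor genes of the podocyte lineage, Wt1, Lmx1b, Tcf21, Foxc1, Foxc2, Foxd1, Pax2 and Pax8. They were taken by gene name from a table of 54532 mouse genes, and each name matched 1 gene. RNA-sequencing was performed on the mouse podocyte cell line MPC5, which is conditionally immortalized: it proliferates with interferon-γ at a lower temperature and is switched to medium without it at a higher temperature to differentiate. The IL-12 treatment group held 2 libraries of cells that received IL-12 at 400 ng/ml over 6 h, and 2 libraries of cells given saline made up the control group. The sources do not state whether the sequenced cells had been differentiated, which bears on what the levels below stand for. Whether a group's libraries were separate cultures is not stated either, so the p-values measure only the spread between these libraries.

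Podocytes are the epithelial cells that wrap the glomerular capillaries and hold the slit diaphragm. They arise from nephron progenitors in which PAX2 and PAX8, a pair of related paired-box factors, take part in the conversion of mesenchyme to epithelium. WT1, a zinc finger factor, is retained in the mature podocyte, where PAX2 is normally switched off and where WT1 is known to repress the Pax2 gene. LMX1B (a LIM homeodomain factor), TCF21 (a basic helix-loop-helix factor) and the forkhead factors FOXC1 and FOXC2 act in podocyte differentiation, and the forkhead factor FOXD1 marks the renal stroma and is also found in the podocyte lineage.

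The group split into genes with ample reads and genes with next to none. Pax2, Pax8, Foxc1 and Foxd1 were well above the counting limit in all libraries, while Wt1, Foxc2, Lmx1b and Tcf21 had between 0 and 16 reads in a library. After IL-12 treatment Pax2 fell by 30.0%, Pax8 fell by 22.5% and Foxc1 fell by 18.5%. Foxd1 did not pass the test. Of the 4 genes that could be tested, 0 rose, against 16.1% of all genes tested. Past a 2-fold limit 0 were called, against 1.61% of all genes tested.

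The total counts were between 18355379 and 20098012 per library. At this depth 3 counts, the smallest number read here as a level, stand for 0.152 to 0.166 CPM (a gene's counts relative to the scaled total of its library). This limit covers counting error only. All CPM values include edgeR's TMM scaling, with the SD taken over 2 libraries. They compare a gene between libraries, and levels of different genes are compared only in the deposited FPKM, which is per kilobase of gene length. Of the defining podocyte markers, Nphs1 (nephrin) had 0 and 1 reads in the control libraries and 0 in both IL-12 libraries, and Ptpro had 0 reads in all 4. Synpo (synaptopodin) and Podxl (podocalyxin) were present. The podocyte marker list (7 genes), mostly Synpo, summed to 559 and 533 CPM without IL-12 and to 386 and 391 CPM with it. The cells therefore carried a part of the podocyte marker set, and the word podocyte is used below as in the labels. The endothelial list (5 genes) summed to between 0.159 and 0.556 CPM per library, the leukocyte list (5 genes) to between 5.06 and 7.30 CPM, nearly all from Cd68, and the fibroblast list (4 genes) to 8.58 and 10.6 CPM in the control group and 15.2 and 15.8 CPM in the IL-12 treatment group, nearly all from Col1a1. The mesangial list (6 genes), mostly Acta2 and Pdgfrb, summed to 197 and 201 CPM in the control group and 224 and 226 CPM in the IL-12 treatment group. Of the 5 proximal tubule genes, Lrp2 and Cubn had reads, while Slc34a1, Slc5a2 and Hnf4a were at 0. The list summed to 635 and 660 CPM in the control group and to 519 and 560 CPM in the IL-12 treatment group. Nearly all of this was Lrp2, and Cubn was between 1.58 and 2.43 CPM per library. The collecting duct list (4 genes) summed to 15.9 and 18.2 CPM in the control group and to 12.4 and 14.4 CPM in the IL-12 treatment group, and in the parietal epithelium list (4 genes, 162 and 169 CPM against 129 and 129 CPM) nearly all reads were those of Pax8 itself. The part of these lists in the results below was not tested. In bulk RNA, fewer cells that make a transcript and less transcript per cell cannot be told apart.

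Pax2 was the most abundant of the 8 genes. Pax2 (ENSMUSG00000004231) lies on the plus strand of chromosome 19 of GRCm38 from 44756045 to 44837871, in 11 separate exon blocks. The control libraries held 4154 and 4175 reads of it, and the IL-12 libraries 3068 and 2776. Both IL-12 libraries were below both control libraries, and the libraries of each group lay close together. Its mean level was 220 ± 1.37 CPM (SD, n = 2) without IL-12 and 154 ± 1.16 CPM (SD, n = 2) with it. This was a log2 fold change of -0.51, with a standard error of 0.04 and a 95% interval of -0.59 to -0.44. Tested by the quasi-likelihood method of edgeR and adjusted by Benjamini-Hochberg over 14095 genes, it reached an adjusted p of 5.95e-09. Only 6.14% of the genes tested had a lower log2 fold change. Among the 924 transcription factor genes tested (those with a deposited factor family), Pax2 had the sixth smallest p-value (rank 6).

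Pax8, the paralog of Pax2, fell as well. Pax8 (ENSMUSG00000026976) lies on the minus strand of chromosome 2 from 24420560 to 24475599, in 13 exon blocks. Of its reads, the control libraries held 3143 and 2998, and the IL-12 libraries 2480 and 2283. The groups did not overlap on the CPM scale, at 166 and 159 CPM for the control libraries against 125 and 126 CPM for the IL-12 libraries. Pax8 changed by -0.37 on the log2 scale (standard error 0.04, 95% interval -0.46 to -0.28, adjusted p = 1.69e-06 from edgeR). Of the genes tested, 10.7% had a lower log2 fold change, and Pax8 was at rank 31 by p-value among the transcription factor genes.

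The forkhead gene Foxc1 (ENSMUSG00000050295) lies on the plus strand of chromosome 13 from 31806633 to 31812476, as 1 exon. It was read 1165 and 1231 times without IL-12 and 1034 and 922 times with it. Scaled, the control mean of 63.4 ± 2.64 CPM (SD, n = 2) went to 51.6 ± 0.922 CPM (SD, n = 2), again without overlap. The log2 fold change of -0.30 (standard error 0.06, 95% interval -0.41 to -0.18) passed at an adjusted p of 4.46e-04 (edgeR), and 14.2% of the genes tested had a lower value.

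Foxd1 (ENSMUSG00000078302), the other forkhead gene with ample reads, lies on the same chromosome from 98354242 to 98359305 on the plus strand, also as 1 exon. Its reads numbered 939 and 1087 without IL-12, and 1013 and 873 with it. The groups overlapped, since the IL-12 libraries (51.2 and 48.3 CPM) lay on both sides of the lower control library (49.6 CPM, against 57.6 CPM in the other). Foxd1 changed by -0.11 on the log2 scale (standard error 0.07, adjusted p = 0.271 from edgeR). The 95% interval of its change, from -15.9% to 2.60%, overlapped that of Foxc1, from -24.9% to -11.6%, and the difference between the changes of these genes was not tested. The value depended on which control library was used: without Control replicate 1 the log2 fold change was -0.21 (adjusted p = 0.0280 from edgeR), and without Control replicate 2 it was 0.006 (adjusted p = 0.971 from edgeR).

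Together, 3 of the 4 genes tested were lower and 0 were higher at an adjusted p below 0.05 and any fold change. Over all genes tested, 14.4% were lower and 16.1% were higher by the same rule, 30.5% in either direction. With scaling by total counts only, the higher genes were 40.5% of the genes called, against 52.8% with TMM, and the 3 genes stayed lower. Past the 2-fold limit 0 of the 4 genes were called, against 1.61% of all genes tested. Both IL-12 libraries were below both control libraries in 3 of the 4, as in 31.2% of all genes tested. The median log2 fold change was -0.33 over the 4 genes and -0.002 over all genes. These shares describe 4 genes that passed the filter on low counts, and they do not stand for the 8. Among the transcription factor genes tested, 17.9% were lower and 10.7% were higher, and 34 of those that were called had a lower log2 fold change than Pax2.

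**Figure D1:**
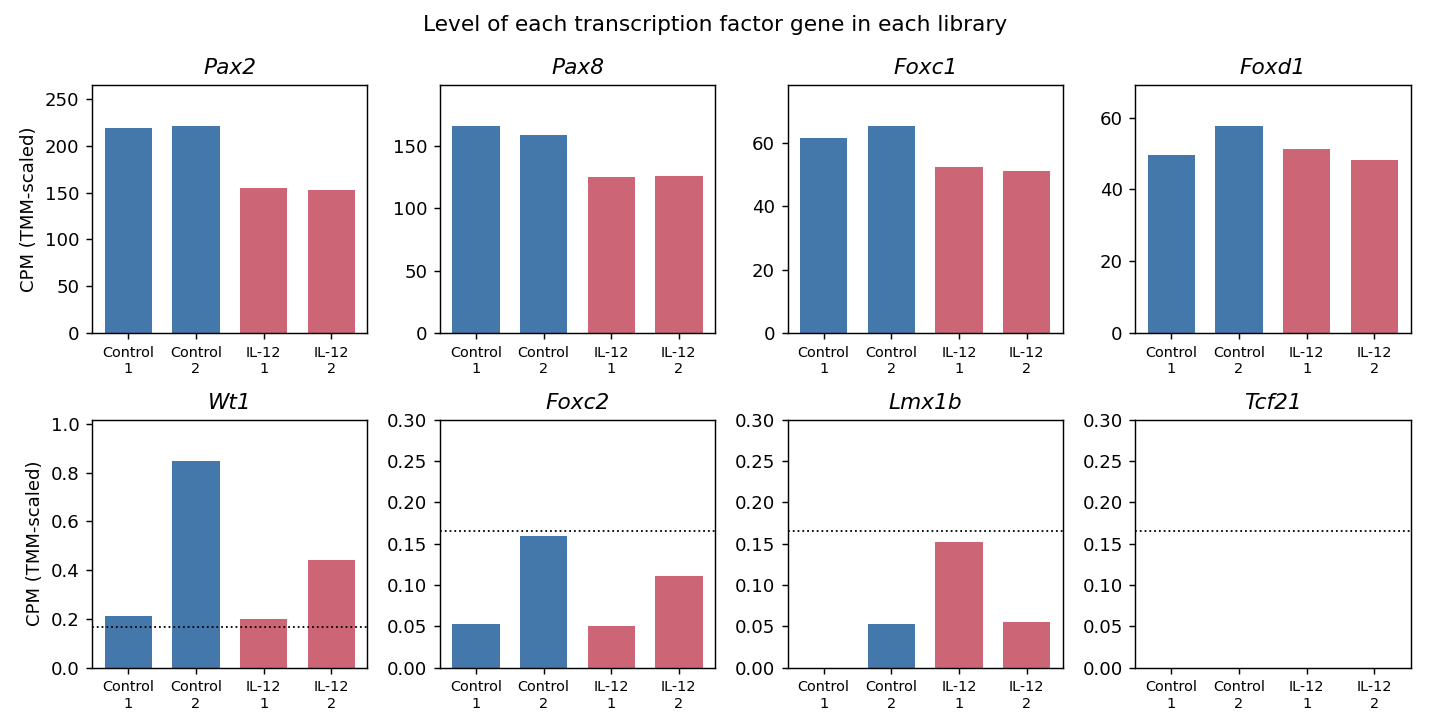
Bars show the TMM-scaled level in CPM of each of the 8 genes in each control (blue) and IL-12 (red) library, with a separate linear axis from 0 for each gene and, in the lower row, a dotted line at 0.166 CPM, the highest level that 3 counts stand for. Both red bars of Pax2, Pax8 and Foxc1 end below both blue bars, Foxd1 overlapped, and the lower row shows genes at or near the counting limit.

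Wt1 (ENSMUSG00000016458, plus strand of chromosome 2 from 105126529 to 105173616, 10 exon blocks) had 4 and 16 reads without IL-12 and 4 and 8 with it. That was over 3 reads in each library but a mean level of only 0.529 ± 0.450 CPM (SD, n = 2) without IL-12 and 0.322 ± 0.170 CPM (SD, n = 2) with it. The spread within the control group was larger than the difference between the groups. Wt1 did not pass the filter on low counts. When all genes with a read were fitted, its log2 fold change was -0.72 with a 95% interval from -2.39 to 0.95 (adjusted p = 0.660 from edgeR), so a change of Wt1 was not detectable at this depth. The antisense gene Wt1os, which starts 19 bases before Wt1 on the opposite strand, had 1 read over the 4 libraries.

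Foxc2, the closest relative of Foxc1, had 1 and 3 reads without IL-12 and 1 and 2 with it. It (ENSMUSG00000046714) lies on chromosome 8 from 121116171 to 121118895, as 1 exon. All 4 libraries were at or under the limit of 3 counts, and no fold change is given. Of its neighbours, Mthfsd, 7779 bases away, had 6603 reads over the 4 libraries, and Foxl1, 9045 bases away on the other side, had 0. Lmx1b (ENSMUSG00000038765, minus strand of chromosome 2 from 33560965 to 33640511, 9 exon blocks) had 0 and 1 reads without IL-12 and 3 and 1 with it, which is also at or under the limit in every library. Tcf21 (ENSMUSG00000045680, minus strand of chromosome 10 from 22817281 to 22820174, 2 exon blocks) had 0 reads in all 4 libraries, that is 0 of 75781084 counts. The limit of 3 counts allows a level of up to 0.152 to 0.166 CPM in a library.

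Per kilobase, the order of the genes in the control group was Pax2, then Pax8, then Foxc1 and Foxd1 together, and far below them Wt1. Foxc2, Lmx1b and Tcf21, at or under the limit of 3 counts, were not ordered. Pax2 had 40.7 ± 0.304 FPKM (SD, n = 2) in the control group, against 28.5 ± 0.213 FPKM (SD, n = 2) with IL-12. Pax8 followed with 26.8 ± 0.790 FPKM (SD, n = 2) and 20.8 ± 0.0986 FPKM (SD, n = 2). These paired-box genes did not overlap in any library, and both lay clear of the forkhead genes. In the control group Foxc1 (10.5 and 11.2 FPKM) and Foxd1 (9.78 and 11.4 FPKM) did not differ beyond their spread. In the IL-12 treatment group Foxd1 (10.1 and 9.54 FPKM) was above Foxc1 (8.95 and 8.73 FPKM) in both libraries. Wt1 had 0.0855 FPKM and 0.0521 FPKM as group means, and overlapped Foxc2 (0.0389 and 0.0296 FPKM) in its libraries with fewest reads.

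Among the 1469 genes with a deposited transcription factor family, ordered by mean FPKM in the control group, Pax2 was at rank 37, Pax8 at rank 79, Foxc1 at rank 252 and Foxd1 at rank 260. Wt1 was at rank 960. Foxc2 and Lmx1b, on 4 reads and 1 read in the control group, have no rank that can be read, and Tcf21 was among the 375 genes listed at 0. In the IL-12 treatment group Pax2 was at rank 65, Pax8 at rank 111, Foxc1 at rank 297 and Foxd1 at rank 273.

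**Figure D2:**
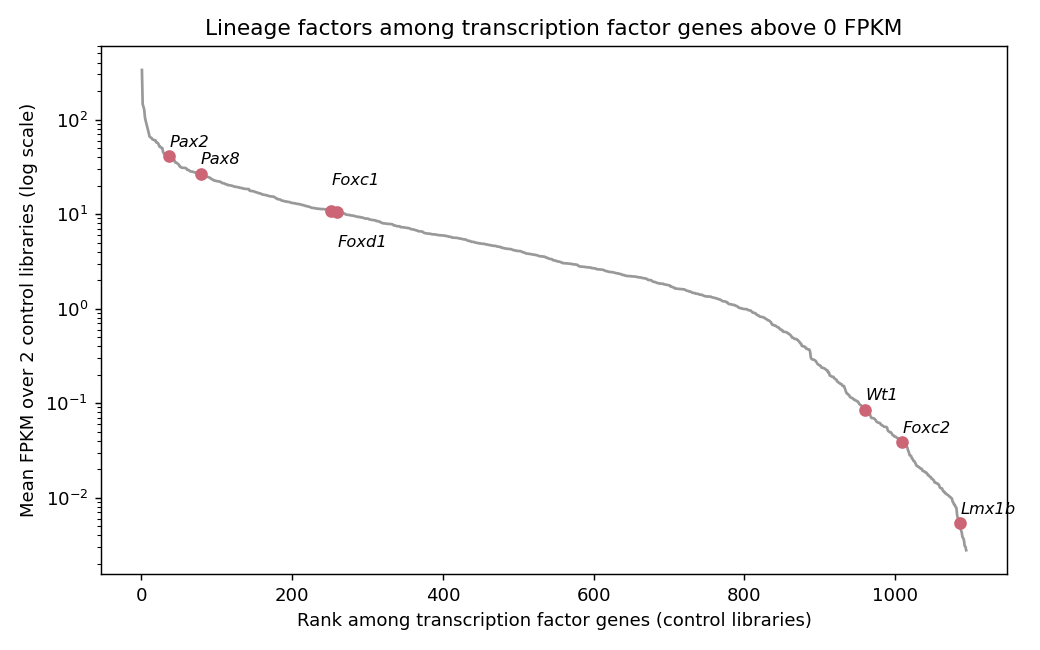
The grey line gives the mean FPKM over 2 control libraries (log axis) of the transcription factor genes above 0, in order of rank, and red points mark 7 of the 8 lineage genes, since Tcf21 was at 0. Pax2 and Pax8 lie at ranks 37 and 79, Foxc1 and Foxd1 at 252 and 260, and Wt1, Foxc2 and Lmx1b on the steep tail to the right, where the places of Foxc2 and Lmx1b rest on 4 reads and 1 read.

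A ratio of 2 genes within a library does not depend on how libraries are scaled against each other. The Pax2 to Pax8 ratio of FPKM was 1.48 and 1.56 without IL-12 and 1.39 and 1.36 with it, so that the lead of Pax2 over Pax8 was smaller in both IL-12 libraries. The Foxc1 to Foxd1 ratio was 1.08 and 0.981 without IL-12 and 0.884 and 0.915 with it, and the Pax2 to Foxd1 ratio was 4.14 and 3.60 against 2.84 and 2.98. Neither of these overlapped between the groups. The Pax8 to Foxd1 ratio (2.80 and 2.30 against 2.05 and 2.18) and the Pax2 to Foxc1 ratio (3.85 and 3.66 against 3.21 and 3.25) did not overlap either. The Pax8 to Foxc1 ratio overlapped, with 2.60 and 2.35 without IL-12 and 2.31 and 2.39 with it. The ratios are given as values and were not tested. Among single genes, both IL-12 libraries were below both control libraries in 31.2% of those tested. The share of ratios that do so was not computed. The ratios share genes, so they are not separate results, and those with Pax2 also contain the fall of Pax2 already given above.

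**Figure D3:**
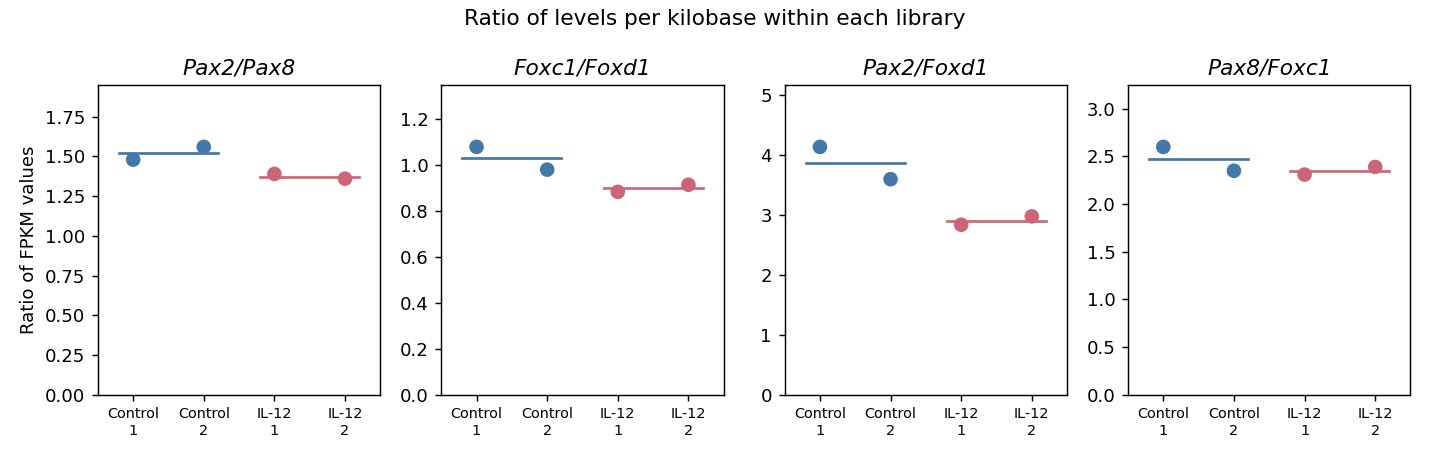
Points give the ratio of FPKM values of 2 genes in each control (blue) and IL-12 (red) library on a linear axis from 0, and lines give the group means. The Pax2 to Pax8 ratio lies between 1.36 and 1.39 in the IL-12 libraries, under both control libraries, and the Pax8 to Foxc1 ratio overlaps between the groups.

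Reads of other genes at the same loci were few. In Pax2 lie the antisense genes 1700039E22Rik, with 132 reads over the 4 libraries, and Gm20395, with 15, and the microRNA gene Mir6405, with 6, against 14173 reads for Pax2. Gm13415 overlaps Pax8 on the opposite strand and had 111 reads against 10904. No deposited gene overlaps Foxc1 or Foxd1. Whether the counting used strand is not given in the sources used here, so reads of Pax2 and Pax8 and of their antisense partners cannot be told apart. 1700039E22Rik (log2 fold change -0.81, adjusted p = 0.0641 from edgeR) and Gm13415 (-0.83, adjusted p = 0.118 from edgeR) did not pass the test. In both, the IL-12 libraries were below both control libraries. Of the nearest neighbours with ample reads, Gmds, 7103 bases from Foxc1, had a log2 fold change of -0.01 (adjusted p = 0.931 from edgeR), and Slf2, 93248 bases from Pax2, fell with a log2 fold change of -0.13 (adjusted p = 0.0222 from edgeR).

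The sequences before the start of the genes with ample reads are shown because 3 of these genes fell in the same comparison. Whether these falls are linked was not tested. The sequences come from RefSeq on GRCm38.p6, whose table held 8 windows for 6 of the 8 genes (Lmx1b, Tcf21, Foxc1, Foxd1, Pax2 and Pax8). Each window covers the 250 bases before an annotated start, and bases that GENCODE M21 annotates as untranslated region were left out of the print, which left 237 bases for Foxc1 and 247 for Foxd1. For Pax2, which has 3 annotated starts, the one nearest before the deposited gene is shown. Capitals mark the letters of 7 motifs, searched on both strands. The core promoter motifs were the TATA box, spelled TATAAA, and the CCAAT box, spelled by its name. The GC box, a site of SP factors, was spelled GGGCGG. The site type shared by EGR factors and WT1 was spelled GCGNGGGCG. The AP-1 site was spelled TGANTCA. The TEAD site, read by the partners of YAP, was spelled CATTCC. The SMAD box, read by factors downstream of TGF-β receptors, was spelled CAGAC. The GC box and the EGR type can overlap, and in these windows they did not.
Pax2, chr19:44755502-44755751, plus strand: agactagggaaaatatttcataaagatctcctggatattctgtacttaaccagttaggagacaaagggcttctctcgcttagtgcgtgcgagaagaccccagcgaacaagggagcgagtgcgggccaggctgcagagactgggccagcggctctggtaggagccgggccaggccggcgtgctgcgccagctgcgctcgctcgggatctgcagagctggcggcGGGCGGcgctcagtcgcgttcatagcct
Pax8, chr2:24475600-24475849, minus strand: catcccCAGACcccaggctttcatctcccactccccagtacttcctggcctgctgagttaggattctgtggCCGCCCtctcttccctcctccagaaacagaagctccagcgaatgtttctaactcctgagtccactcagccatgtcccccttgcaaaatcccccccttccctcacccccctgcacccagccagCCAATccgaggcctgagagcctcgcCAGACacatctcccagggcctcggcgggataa
Foxc1, chr13:31806396-31806632, plus strand: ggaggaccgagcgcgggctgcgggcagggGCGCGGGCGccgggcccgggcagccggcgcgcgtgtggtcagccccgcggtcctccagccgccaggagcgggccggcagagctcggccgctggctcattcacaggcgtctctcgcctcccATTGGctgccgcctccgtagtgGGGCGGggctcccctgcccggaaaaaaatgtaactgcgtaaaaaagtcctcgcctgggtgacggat
Foxd1, chr13:98353995-98354241, plus strand: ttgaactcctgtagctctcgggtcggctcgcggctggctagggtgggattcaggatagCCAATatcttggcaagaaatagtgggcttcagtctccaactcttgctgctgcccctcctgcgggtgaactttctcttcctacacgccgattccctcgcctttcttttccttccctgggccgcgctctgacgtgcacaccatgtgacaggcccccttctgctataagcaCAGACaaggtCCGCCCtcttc

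All 4 windows held 1 GC box, which 32.7% of the 32851 windows in the table held. The CCAAT box was in the windows of Pax8, Foxc1 and Foxd1 and not in that of Pax2 (33.8% of all windows), and the SMAD letters were found at 2 places for Pax8 and 1 for Foxd1 (42.2% of all windows). The EGR and WT1 type of site was in the Foxc1 window alone among these, against 4.70% of all windows. The TATA box, AP-1 and TEAD letters were in none of the 4 windows, against 12.4%, 6.75% and 12.6% of all windows. No motif was found in the windows of all 3 genes that fell and not in that of Foxd1. These are matches of letters, not sites. In GC content over the full window Foxc1 had 70.8%, Pax2 60.8%, Pax8 60.4% and Foxd1 57.2%, with a median of 52.4% over all windows. The ratio of observed to expected CpG was 0.928 for Foxc1, 0.881 for Pax2, 0.600 for Foxd1 and 0.314 for Pax8, and the median over all windows was 0.373. The Pax2 values depend on the start chosen. Its window at chr19:44746351-44746600 held 0 GC boxes and the SMAD letters at 1 place, with 52.8% GC and a CpG ratio of 0.391. Its remaining window, all annotated as untranslated region, held 1 GC box. That window had 72.8% GC and a CpG ratio of 0.761.

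Genes of 5 related lists were then counted by the same test, as context for the 8 factors. Whether these factors act on the listed genes was not tested. Of 23 podocyte genes, 18 were tested, of which 5 rose, 6 fell and 7 did not pass, with a median log2 fold change of -0.12. The share called was 61.1%, against 30.5% of all genes tested. This list and those below were chosen with earlier results of these data known, so their shares describe the listed genes only. Among those that fell were Synpo, an actin-binding protein of the foot process (480 ± 13.7 CPM to 304 ± 3.79 CPM, SD, n = 2, log2 fold change -0.66, adjusted p = 3.00e-11 from edgeR), Arhgap24, a Rac-regulating protein (-0.68, adjusted p = 6.50e-07), Npnt, nephronectin of the basement membrane (-0.25, adjusted p = 3.93e-06), and Scel, sciellin (-0.86, adjusted p = 5.63e-06). Among those that rose were Nes (1.02), Col4a4 (1.56), Col4a3 (1.57) and Actn4 (0.17, adjusted p = 6.07e-05). Podxl, which WT1 is known to activate, rose by 0.33 on the log2 scale (adjusted p = 3.91e-04 from edgeR), with 56.7 ± 5.80 CPM (SD, n = 2) without and 71.4 ± 1.99 CPM (SD, n = 2) with IL-12.

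Of 10 other podocyte transcription factors, 9 were tested, of which 4 were called. Zhx1 (-0.40), Zhx3 (-0.38) and Nr3c1, the glucocorticoid receptor (-0.16), fell. Dach1 was at 0 in every library. The median log2 fold change was -0.09. Of the 9 genes tested, 44.4% were called, against 30.5% of all genes tested and 28.6% of the transcription factor genes tested.

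Binding partners and cofactors of the 8 factors were largely present, with 19 of 20 genes tested. Of these, 4 rose, 5 fell and 10 did not pass. LIM homeodomain proteins such as LMX1B work through LDB1 and the single-stranded DNA-binding proteins that stabilise it, and Ldb1 (-0.23, adjusted p = 1.20e-04 from edgeR), Ssbp2 (-0.55, adjusted p = 2.92e-04) and Ssbp3 (-0.22, adjusted p = 7.02e-04) fell, while Ldb2 was at 0. Tle3, a Groucho corepressor, fell (-0.27, adjusted p = 1.67e-04 from edgeR). Of the E proteins that pair with TCF21, Tcf3 fell (-0.13), and Tcf4 (-0.14) and Tcf12 (-0.01) did not pass. Id1 (0.17) and Id2 (0.22), which sequester E proteins, rose, as did the WT1 corepressor Basp1 (0.26, adjusted p = 1.28e-04 from edgeR) and Cited2 (0.22, adjusted p = 1.61e-04 from edgeR). The median log2 fold change was 0.01, and 47.4% of the genes tested were called, against 30.5% of all genes tested.

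Of 32 other kidney developmental transcription factors, 19 were tested, of which 2 rose and 7 fell, with a median log2 fold change of -0.14. The share called was 47.4% of those tested, against 30.5% of all genes tested and 28.6% of the transcription factor genes tested. Among those that fell were Tfap2a (53.3 ± 1.68 CPM to 34.9 ± 0.110 CPM, SD, n = 2, log2 fold change -0.61, adjusted p = 4.31e-07 from edgeR), Sall1, a nephron progenitor factor (-0.28, adjusted p = 0.00136), and Hoxa10 (-0.19, adjusted p = 0.00618). Twist1, a mesenchymal factor, rose (0.31, adjusted p = 5.75e-04 from edgeR), and so did Irx3 (0.62, adjusted p = 0.0323), whose IL-12 libraries had 138 and 79 counts. The nephron progenitor factor Six2 was at 0 in every library. With the DESeq2 Wald test the list had 5 genes called in place of 9. Over all genes tested the number was 2705 in place of 4297. Fewer genes were also called, in the list and over all genes, when any library was left out.

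Of 67 family relatives of the 8 factors, 28 were tested, of which 4 rose, 6 fell and 18 did not pass, and 25 were at 0 in every library. The median log2 fold change was 0.01, and 35.7% of the list's tested genes were called, against 30.5% of all genes tested. Foxf1, which lies in the same forkhead cluster as Foxc2, rose by 0.41 on the log2 scale (adjusted p = 5.20e-06 from edgeR), with 74.1 ± 0.252 CPM (SD, n = 2) without and 98.1 ± 5.08 CPM (SD, n = 2) with IL-12. Egr3 (0.75), Foxk2 (0.19) and Lhx9 (0.25) also rose. Foxn3 (-0.43), Foxo3 (-0.29) and Foxj2 (-0.20) fell. Of the paired-box relatives only Pax9 was tested, and it was the 1 gene of the list past 2-fold: it had 41 and 31 counts without IL-12 and 16 in each IL-12 library, which gave -1.17 on the log2 scale (standard error 0.35, adjusted p = 0.0164 from edgeR). The number called was 5 with the DESeq2 Wald test in place of 10. Over all genes tested it was 2705 in place of 4297. When any library was left out, fewer genes were also called in the list and over all genes.

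**Figure D4:**
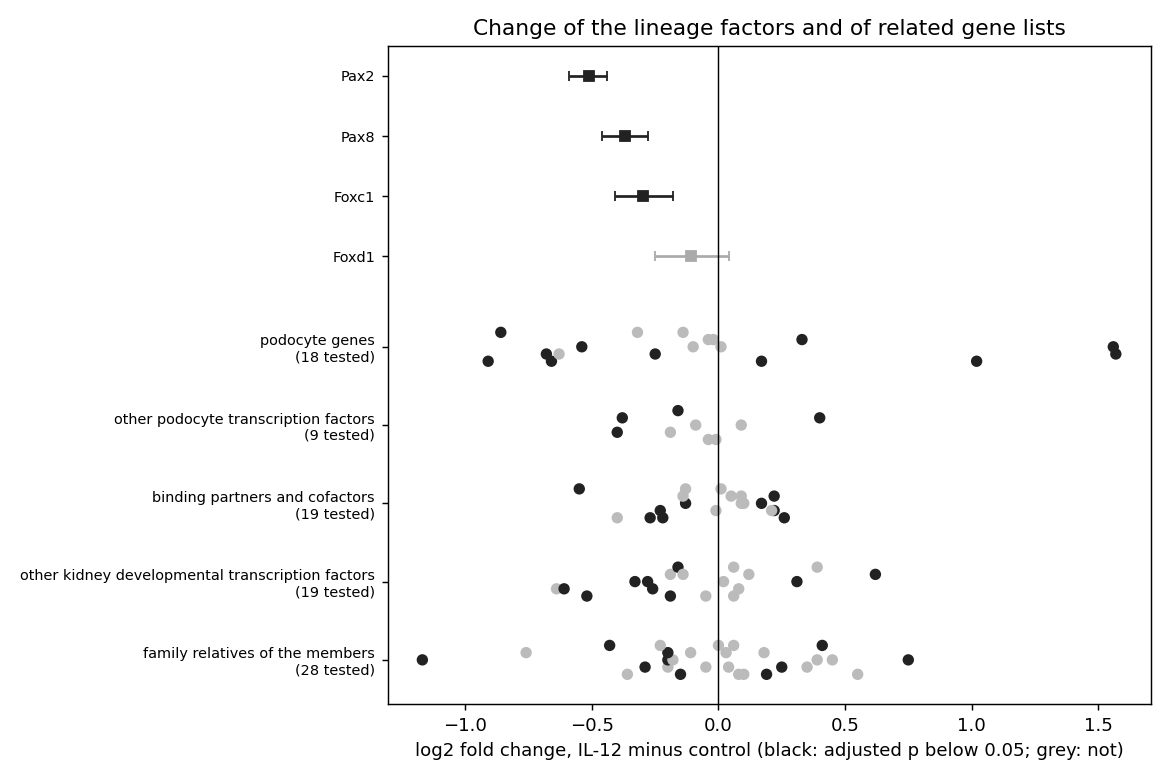
Squares with 95% intervals give the log2 fold change (IL-12 minus control, edgeR) of the 4 lineage genes tested, and dots give that of each tested gene in the 5 related lists, black where the adjusted p was below 0.05 and grey otherwise. The intervals of Pax2, Pax8 and Foxc1 lie below 0, that of Foxd1 crosses it, and each list holds genes called on both sides.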

How the data were processed

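Total RNA of 4 MPC5 libraries was sequenced. The authors deposited whole-number read counts and FPKM per gene, with gene names, coordinates, lengths and factor families. The submitters' processing notes name HISAT2, StringTie and mm9, but the deposited coordinates of the 8 genes equal those of GENCODE M21 on GRCm38, as did 98.3% of 54409 shared genes. The counting program, versions and strand setting are not given in the sources used here. Counts were tested with edgeR 4.0.16 (R 4.3.3, TMM, quasi-likelihood) after a filter of at least 10 counts in enough libraries and 15 in all, with Benjamini-Hochberg adjustment over 14095 genes. Standard errors are the log2 fold change over the root of F, and 95% intervals use the t distribution of the fit. The deposited FPKM served for levels between genes and, as log2(FPKM + 1) or log2(FPKM + 0.1) with limma 3.58.1, as alternatives. Other alternatives were DESeq2 1.42.0, other scalings and filters, a replicate block and leaving out each library. The test was tested on simulated data. The 8 genes and all lists were chosen with earlier results of these data known. From each list, up to 4 genes called in each direction were named by smallest adjusted p, and others named beside them (Podxl, Tcf3, Tcf4, Tcf12 and genes at 0) were chosen after their values were seen. A few genes that the rule would name are not reported here. Limits of 3 counts cover counting error only.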

Additional observations from a re-analysis of the deposited data

How the results depend on the processing

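Pax2, Pax8 and Foxc1 stayed lower and called under all 15 alternatives run for each, with log2 fold changes between -0.55 and -0.50, -0.41 and -0.33, and -0.34 and -0.25. Foxd1 gave -0.21 (adjusted p = 0.0280 from edgeR) without Control replicate 1 and 0.006 (adjusted p = 0.971 from edgeR) without Control replicate 2. The labels do not say that replicate numbers mark shared cultures, and deviations of same-numbered libraries correlated at -0.027 across genes. With a replicate block, Pax2 had a log2 fold change of -0.51 and the number of lineage genes called was 3. Counts of called genes moved more in the lists. For other podocyte transcription factors the count was 4, and 2 with limma on either FPKM scale. For other kidney developmental transcription factors it was 9, and 5 with the DESeq2 Wald test, with no filter and with limma on either FPKM scale, and 5 to 8 when 1 library was left out. For family relatives it was 10, and 5 with the DESeq2 Wald test, with limma on either FPKM scale and at an adjusted p below 0.01, 6 with no filter, and 5 to 9 when 1 library was left out. Over all genes 4297 were called, against 2705 with the DESeq2 Wald test and 2528 without IL12 replicate 1. The cause of these moves was not tested. Depth limited what could be said of Foxc2, Lmx1b and Tcf21, and the comparison of Wt1 was limited by few reads and by the spread within the control group.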
